A study of Mus musculus with 4 samples.

Results

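Integrins are cell surface receptors that each pair 1 α with 1 β subunit and hold cells to the extracellular matrix. Basement membranes, the thin matrix sheets under epithelia, are built on laminins, trimers of 1 α, 1 β and 1 γ chain, which nidogens, perlecan and agrin link to collagen IV and to the cell. Many integrins with the β1 subunit, and the β4 integrin of hemidesmosomes, bind laminin, so receptors and ligands of this system are described here side by side. The members were the protein-coding genes whose symbols are those of the integrin α and β subunits, the laminin α, β and γ chains, the 2 nidogens, Hspg2 (perlecan) and Agrn (agrin). There were 41 such genes among the 31828 genes of the deposited table, namely 26 integrin subunits (18 α and 8 β) as receptors and 15 basement membrane components as ligands.

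RNA-seq was performed on AML12 (alpha mouse liver 12) cells, an immortalised mouse hepatocyte line, grown as a flat layer in dishes (2D) or embedded in Matrigel (3D), giving 4 libraries, 2 of each kind. Hydroxyurea, a blocker of DNA replication, was present at 1 mM in both cultures, for 24 h with 2D cells but 36 h with 3D cells, so that culture and time in hydroxyurea cannot be told apart in any value given here. Matrigel is itself a basement membrane extract of a mouse tumour, rich in laminin, collagen IV and nidogen, and the RNA values give what the cells transcribed, not the protein they were embedded in. Nothing in the labels says that the 2 libraries of a culture came from separate cultures, so the p-values measure the spread between these libraries, which may be technical. Values are TPM, transcript abundances corrected for length and scaled to 1 total per library, so levels can be compared between genes, but they keep no sequencing depth and no interval for counting error can be given. Between 13891 and 14256 genes reached 1 TPM in a library, and the Pearson correlation of log2(TPM + 1) across the tested genes was 0.991 and 0.992 between replicates and 0.951 to 0.952 between cultures.

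The hepatocyte label was compared with 8 marker genes, of which 7 were tested, 5 were higher in 3D and 2, Krt8 and Krt18, were lower. By the same test, described below, 23.4% of all genes tested were higher and 27.1% lower. Krt8 and Krt18, keratins of simple epithelia, were at 1795 to 3242 and 3275 to 6286 TPM, while Alb, serum albumin, was at 0.819 and 1.203 TPM in 2D and at 12.7 and 10.0 TPM in 3D. The hepatocyte transcription factor gene Hnf4a was at 56.7 and 57.6 TPM in 2D and at 164 and 156 TPM in 3D, Ttr (transthyretin), Apob and Apoa1 were also higher in 3D, and Serpina1a was at most at 0.0768 TPM. Of 6 bile duct markers 4 were tested. The keratins Krt7 and Krt19, at 307 to 492 and 1174 to 1728 TPM, were lower in 3D and Spp1 and Sox9 higher, while Epcam and Cftr were at most at 0.0298 and 0.384 TPM. All 6 endothelial markers found in the table, of 7 listed, stayed under 1 TPM in every library, and their summed level was 1.01 to 1.68 TPM in 2D and 1.79 to 2.23 TPM in 3D. Among 8 leukocyte markers 4 stayed under 1 TPM, with Ptprc (CD45) at most at 0.296 TPM, and the sum, mostly Cd68, was 23.9 to 25.0 TPM in 2D and 26.9 to 30.3 TPM in 3D. Of the 8 stellate cell or fibroblast markers 7 were in the table, and 5 of these stayed under 1 TPM. Their sum, mostly Des (desmin), was 35.5 to 38.6 TPM in 2D and 19.2 to 20.1 TPM in 3D. All cultures were of the AML12 line. In bulk RNA fewer cells expressing a gene and less of its RNA per cell cannot be told apart.

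The study compared genome structure between 2D and 3D growth, using Hi-C, and related it to gene expression. In the RNA of the adhesion system the 2 cultures differed in both directions. In 3D the main integrin subunits of 2D cells, β1 and α3, were lower, as were β4 and β6, whereas the scarcer β3, α7, α1 and β5 were higher. Of the 26 integrin subunits 16 had a mean of at least 1 TPM and were tested, and 4 of these rose and 7 fell in 3D (limma on log2(TPM + 1), adjusted p under 0.05), together 68.8%. Among all 14116 genes tested 50.5% were called, 23.4% higher and 27.1% lower. Of the 15 basement membrane components 11 were tested, 1 rose and 5 fell, together 54.5%, which is near the share of all genes. All 27 tested members had a mean of at least 1 TPM in each culture, so none was tested through 1 culture alone. The median log2 fold change was -0.01 for the integrin subunits and -0.47 for the basement membrane components, against -0.04 for all genes tested. The libraries of the 2 cultures did not overlap for 25 of the 27 tested members and for 77.5% of all genes tested. A called change of at least 1 on the log2 scale was found for 7 of the 27 members and for 8.2% of all genes tested. Because 1 was added to each TPM before taking log2, fold changes of low genes are understated.

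**Figure D1:**
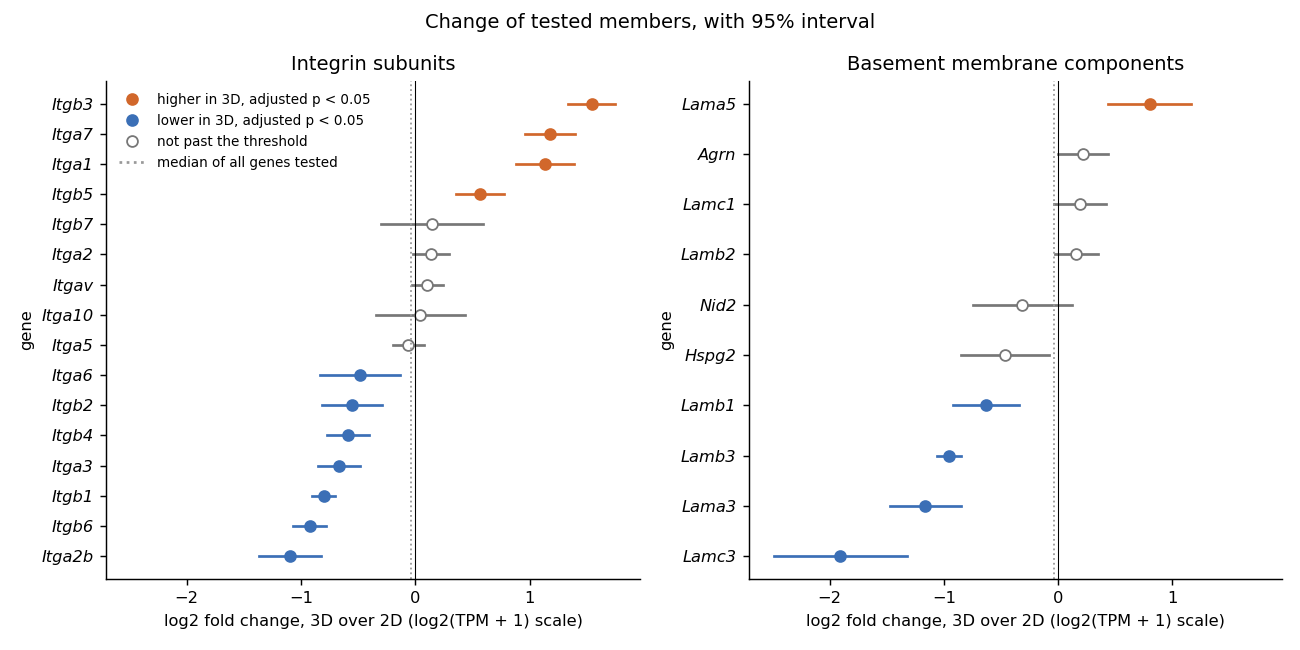
Log2 fold change of 3D over 2D (x axis, log2(TPM + 1) scale) for the 16 tested integrin subunits (left) and 10 of the 11 tested basement membrane components (right), with points for limma estimates from 2 libraries per culture and lines for 95% intervals. Itgb3 lies highest at 1.54 and Lamc3 lowest at -1.91, and the dotted line marks the median of all genes tested, -0.04.

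The bases just before the transcription start are shown for 4 members, those of the highest mean TPM among the ligands and among the receptors that fell or that rose. They are the 250 bases upstream of the RefSeq start on GRCm38.p6, 5′ to 3′ on the gene's strand, with each GC box (GGGCGG, either strand) in capitals, and for Lamb3 the more upstream of 2 starts was taken. The windows are chr1:193301744-193301993 (+) for Lamb3, which fell, chr2:180225860-180226109 (-) for Lama5, which rose, chr8:128685404-128685653 (+) for Itgb1, which fell, and chr16:33829415-33829664 (+) for Itgb5, which rose. The Lamb3 window lies inside the deposited span of its gene (193207699 to 193343878), whereas the other windows adjoin the deposited start of theirs.
Lamb3: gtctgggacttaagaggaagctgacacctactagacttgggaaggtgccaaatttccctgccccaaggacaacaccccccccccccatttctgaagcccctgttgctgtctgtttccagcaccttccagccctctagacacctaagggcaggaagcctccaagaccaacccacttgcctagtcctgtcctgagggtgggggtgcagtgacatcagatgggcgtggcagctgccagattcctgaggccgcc
Lama5: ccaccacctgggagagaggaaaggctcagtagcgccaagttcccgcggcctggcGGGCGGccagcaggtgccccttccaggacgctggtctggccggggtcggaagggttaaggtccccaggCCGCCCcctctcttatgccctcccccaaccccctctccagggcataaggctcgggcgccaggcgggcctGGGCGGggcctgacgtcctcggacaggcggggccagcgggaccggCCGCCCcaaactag
Itgb1: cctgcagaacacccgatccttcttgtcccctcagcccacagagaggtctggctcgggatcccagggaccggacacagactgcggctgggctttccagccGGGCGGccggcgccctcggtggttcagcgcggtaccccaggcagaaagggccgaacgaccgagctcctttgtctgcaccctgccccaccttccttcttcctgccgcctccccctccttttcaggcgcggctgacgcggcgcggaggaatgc
Itgb5: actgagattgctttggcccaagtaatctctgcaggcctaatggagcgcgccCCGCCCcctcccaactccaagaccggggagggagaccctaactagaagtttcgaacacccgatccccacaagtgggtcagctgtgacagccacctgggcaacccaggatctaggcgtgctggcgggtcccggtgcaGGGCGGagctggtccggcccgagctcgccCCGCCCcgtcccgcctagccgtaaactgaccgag

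The Lamb3 window holds no GC box and 2 CpG dinucleotides at 58.8% GC, whereas that of Lama5 holds 4 GC boxes and 19 CpG dinucleotides at 72.4% GC. The Itgb1 and Itgb5 windows hold 1 and 3 GC boxes and 21 and 18 CpG dinucleotides. Outside those shown, the window of Itga1 holds no GC box and 10 CpG dinucleotides at 57.6% GC. A GC box was found in 32.7% of 32851 such windows of all genes and in 13 of the 30 windows of the 26 members with a window used here. Lama3, on chromosome 18, was left out of the member windows, whether or not it has a RefSeq entry. The AP-1 motif TGANTCA, searched on both strands as were the others, was in 1 member window (Itgax) and in 6.75% of all windows. The TEAD motif GGAATG was in 4 member windows (Itga10, Itgb1, the more downstream start of Lamb3, and Nid1) and in 12.6% of all windows. TATAAA was in 0 member windows and in 12.4% of all windows. These matches describe the letters in the windows only, and a link to the changes in level was not tested.

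Among the β subunits, Itgb1 (ENSMUSG00000025809, chromosome 8, 128685654 to 128733200, GRCm38 as for all positions), the shared partner of most α subunits, had the highest mean TPM over the 4 libraries of any member but Lamb3. It was at 692 and 718 TPM in the 2D libraries and at 408 and 399 TPM in the 3D libraries. Both 3D libraries were below both 2D libraries, and 3D differed from 2D by -0.80 in log2 (SE 0.04, limma adjusted p 0.000406). Itgb4 (chromosome 11, 115974709 to 116008412), which pairs with α6 in hemidesmosomes, was at 140 and 157 TPM in 2D and at 100.3 and 96.1 TPM in 3D. The fall was 0.59 in log2 units (limma adjusted p 0.0032). Itgb6 (chromosome 2, 60598292 to 60722643), which pairs with αv in epithelia and can activate latent TGF-β, was at 106 and 113 TPM in 2D and at 56.2 and 58.0 TPM in 3D. It fell by 0.92 (limma adjusted p 0.0006), with the cultures again not overlapping.

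The other β subunits were scarcer. Itgb3 (ENSMUSG00000020689, chromosome 11, 104608000 to 104670476), a partner of αv and of αIIb, was at 10.4 and 11.4 TPM in 2D and at 34.9 and 32.6 TPM in 3D. This was 3.09 times the 2D mean and the highest fold change of any tested member (log2 fold change 1.54, SE 0.08, limma adjusted p 0.000461). Itgb5 (chromosome 16, 33829665 to 33949338), a further partner of αv, was at 18.2 and 19.9 TPM in 2D and at 29.9 and 27.5 TPM in 3D, and it rose by 0.57 (limma adjusted p 0.0052). Itgb2, the β subunit of leukocyte integrins, was at 7.72 and 7.85 TPM in 2D and at 5.31 and 4.64 TPM in 3D. It fell by 0.56 (limma adjusted p 0.0104), and without 3D replicate 2 it was not past the threshold (log2 fold change -0.48, limma adjusted p 0.0524). Its level stood beside leukocyte α subunits that were all under 1 TPM, and the part of leukocyte transcripts in it was not tested. Itgb7 was at 12.5 and 8.78 TPM in 2D and at 12.0 and 11.4 TPM in 3D, and the 3D libraries lay between the 2D ones. Itgb8 was listed at 0 in 3 libraries and at 0.0075 TPM in the other.

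The laminin-binding α subunits were all 3 called, 2 of them lower, where 50.5% of all genes tested were called. Itga3 (ENSMUSG00000001507, chromosome 11, 95044474 to 95076801), whose α3β1 integrin binds epithelial laminins, was at 578 and 654 TPM in 2D and at 393 and 379 TPM in 3D. It fell by 0.67 (SE 0.07, limma adjusted p 0.0022). Itga6 (chromosome 2, 71745616 to 71858416), which pairs with β1 and β4, was at 96.0 and 104 TPM in 2D and at 62.5 and 80.8 TPM in 3D. The 3D libraries were both lower but lay far apart, and the fall of 0.49 (limma adjusted p 0.0361) was not past the threshold without 2D replicate 1, without 2D replicate 2 or without 3D replicate 1, where it was 0.54, 0.43 and 0.30 (limma adjusted p 0.134, 0.195 and 0.0593). Itga7 (ENSMUSG00000025348, chromosome 10, 128933818 to 128958282), a laminin receptor best known from muscle, was at 11.03 and 12.4 TPM in 2D and at 27.1 and 28.5 TPM in 3D. It rose by 1.18 (SE 0.08, limma adjusted p 0.000861), against the direction of the other two.

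Among the collagen-binding α subunits, Itga1 (ENSMUSG00000042284, chromosome 13, 114953096 to 115101964) was at 3.53 and 3.42 TPM in 2D and at 9.26 and 8.41 TPM in 3D. It rose by 1.13 (SE 0.10, limma adjusted p 0.0013), and both 3D libraries were above both 2D libraries. It shares 3.68% of its exon bases with Gm49395 on the same strand, so a small part of its reads could be split. Itga2 lies 20995 bases from Itga1 with 0 protein-coding genes between them and binds the same class of ligand. It was at 109 and 118 TPM in 2D and at 128 and 121 TPM in 3D, and its difference of 0.13 (95% interval -0.02 to 0.29) did not pass the threshold (limma adjusted p 0.126). Itga10, at 1.79 to 2.34 TPM in the 4 libraries, shares 33.5% of its exon bases with Gm42957, so its level is uncertain. Itga11 was under 0.15 TPM in every library.

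Of the α subunits that bind RGD motifs, the short sequence in fibronectin and vitronectin, Itga2b (chromosome 11, 102453297 to 102470122) changed. It encodes αIIb, best known from platelets with β3 as its partner, and was at 19.5 and 22.4 TPM in 2D and at 9.75 and 8.72 TPM in 3D. It fell by 1.10 (SE 0.10, limma adjusted p 0.0018) while Itgb3, which lies 2140 kb away, rose. Platelet lineage markers stood beside it at a summed 2.73 to 3.44 TPM in 2D and 4.76 to 5.39 TPM in 3D, most of it Ppbp. Of these 5 markers 4, Pf4, Gp9 and Gp1ba among them, were under 1 TPM in every library. Itgav, whose partners include β3, β5, β6 and β8, was at 114 and 114 TPM in 2D and at 127 and 118 TPM in 3D. The difference was 0.10 (95% interval -0.03 to 0.24, limma adjusted p 0.159). Itga5, the fibronectin receptor subunit, was at 61.1 and 63.8 TPM in 2D and at 58.9 and 60.7 TPM in 3D, a difference of -0.06 (95% interval -0.20 to 0.07, limma adjusted p 0.370).

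The 10 integrin subunits with a mean under 1 TPM were not tested. Of these Itga9, a receptor for tenascin C and osteopontin, differed most between the cultures, with 0.0445 and 0.0681 TPM in 2D and 1.07 and 1.00 TPM in 3D. It was called when no filter on low values was used (log2 fold change 0.95, limma adjusted p 0.0080). The leukocyte α subunits Itgal, Itgam, Itgax, Itgad and Itgae were between 0.109 and 0.623 TPM in every library. Itgam shares 68.7% of its exon bases with Gm49368 on the same strand. Itga4 was listed at 0 in both 2D libraries and at 0.027 and 0.0318 TPM in 3D, and Itga8 was at most at 0.0433 TPM. None of these 9 was called with no filter on low values.

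**Figure D2:**
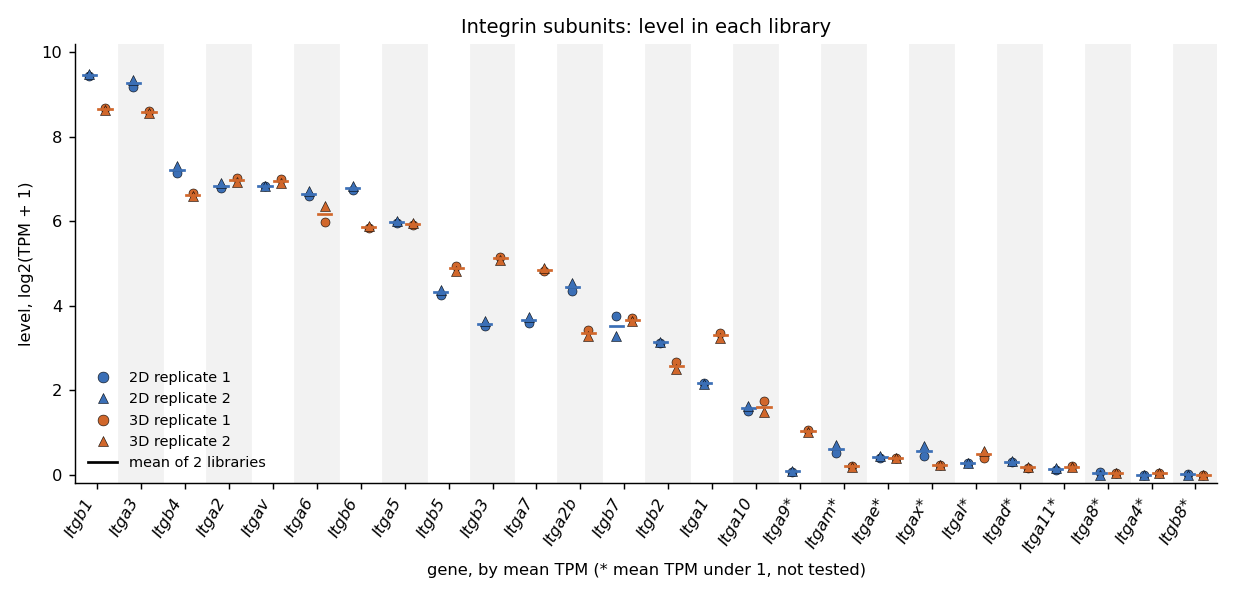
Level of the 26 integrin subunits as log2(TPM + 1) (y axis) in each of the 4 libraries, ordered by mean TPM, with circles and triangles for replicates 1 and 2, blue for 2D, orange for 3D and short lines for means of 2 libraries. Itgb1 (399 to 718 TPM) and Itga3 (379 to 654 TPM) lie above all others in both cultures, and Itgb3, Itga7 and Itga1 are the clearest cases with 3D above 2D.

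Summed over the subunits, the α subunits had 995 and 1097 TPM in 2D and 821 and 810 TPM in 3D, and the β subunits 986 and 1036 TPM in 2D and 647 and 630 TPM in 3D. The sum of α over the sum of β was thus 1.01 and 1.06 in 2D and 1.27 and 1.29 in 3D. Itgb1 made up 70.2% and 69.3% of the β sum in 2D and 63.1% and 63.4% in 3D. Itgb3 and Itgb5 together with αv bind vitronectin, and their shares went from 1.06% and 1.10% to 5.40% and 5.19% for Itgb3 and from 1.84% and 1.92% to 4.62% and 4.37% for Itgb5. Itgb6 had 5.81 and 5.69 times the TPM of Itgb5 in the 2D libraries and 1.88 and 2.11 times in the 3D libraries. Itga3 made up 58.1% and 59.7% of the α sum in 2D and 47.9% and 46.8% in 3D, and Itga7 1.11% and 1.13% in 2D and 3.30% and 3.52% in 3D. These sums and shares are descriptions, with each library given on its own and no test, and they say nothing of which pairs form as proteins.

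Among the ligands, Lamb3 and Lama3, which encode the β3 and α3 chains of epithelial laminin, both fell. Lamb3 (ENSMUSG00000026639, chromosome 1, 193207699 to 193343878) had the highest mean TPM over the 4 libraries of the 41 members, at 759 and 799 TPM in 2D and at 405 and 399 TPM in 3D. Both 3D libraries were below both 2D libraries, and 3D differed from 2D by -0.95 in log2 (SE 0.04, limma adjusted p 0.000325). Lama3 (chromosome 18, 12333819 to 12583013) was at 3.50 and 3.91 TPM in 2D and at 1.12 and 1.08 TPM in 3D, and it fell by 1.16 (SE 0.12, limma adjusted p 0.0022). The transcripts of these chains were present in unequal amounts, with Lamb3 at 204 to 217 times the TPM of Lama3 in 2D and 360 to 371 times in 3D.

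Lama5 (ENSMUSG00000015647, chromosome 2, 180176373 to 180225859) was the only tested basement membrane component that rose. Its α5 chain is widespread in adult epithelial basement membranes, in trimers with β1 or β2 and γ1. It was at 55.9 and 73.7 TPM in 2D and at 116 and 109 TPM in 3D. The 2D libraries lay far apart, but both were below both 3D libraries, and 3D differed from 2D by 0.80 in log2 (SE 0.14, limma adjusted p 0.0094). Without 3D replicate 1 it was 0.76 and not past the threshold (limma adjusted p 0.0629). Of its partners, Lamb1 fell (-0.63, limma adjusted p 0.0098), as described below. Lamb2 was at 64.1 and 72.1 TPM in 2D and at 77.4 and 74.7 TPM in 3D. Lamc1 was at 43.3 and 49.4 TPM in 2D and at 55.1 and 50.8 TPM in 3D. The differences of Lamb2 and Lamc1, 0.16 (95% interval -0.03 to 0.35) and 0.19 (-0.03 to 0.42), did not pass the threshold (limma adjusted p 0.128 and 0.126). Both 3D libraries were above both 2D libraries for each. Without 2D replicate 2 Lamb2 was called higher (0.24, limma adjusted p 0.0387).

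Lamb1, a chain of the first laminins made in development, was at 3.70 and 4.08 TPM in 2D and at 2.10 and 2.22 TPM in 3D. It fell by 0.63 (limma adjusted p 0.0098), and without 3D replicate 1 it was not past the threshold (-0.60, limma adjusted p 0.0528). Lamc3 (chromosome 2, 31887291 to 31946539) had the lowest fold change of all tested members, at 16.5 and 10.4 TPM in 2D and at 2.67 and 2.85 TPM in 3D. The 2D libraries differed from each other more than the 3D libraries did, and both were above 3D (log2 fold change -1.91, SE 0.22, limma adjusted p 0.0031). Lama1, the α chain of the laminin that Matrigel contains, was at 0.0063 to 0.0265 TPM in the 4 libraries. Lama2 and Lama4 were at most at 0.161 and 0.0103 TPM.

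**Figure D3:**
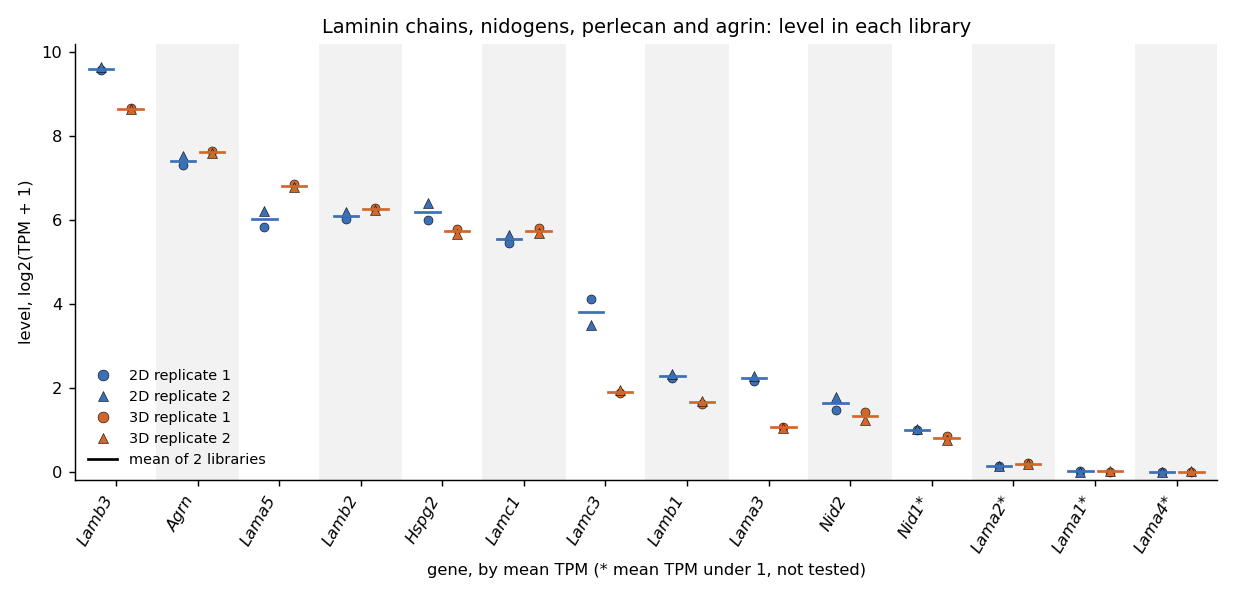
Level of 14 of the 15 basement membrane components as log2(TPM + 1) (y axis) in each of the 4 libraries, ordered by mean TPM, with circles and triangles for replicates 1 and 2, blue for 2D, orange for 3D and short lines for means of 2 libraries. Lamb3 (399 to 799 TPM) lies above all others in both cultures, Lama5 is higher in 3D, and Lamc3 and Lama3 are lower.

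The makeup of the laminin α and β chain transcripts also differed. Lama5 made up 93.9% and 94.8% of the α chain TPM in 2D and 98.9% in each 3D library, and Lama3 most of the rest. Lamb3 made up 91.8% and 91.3% of the β chain TPM in 2D and 83.6% and 83.8% in 3D, and Lamb2 7.75% and 8.24% in 2D and 16.0% and 15.7% in 3D. Summed over the chains, the α chains had 59.5 and 77.7 TPM in 2D and 117 and 111 TPM in 3D, whereas the β chains had 827 and 875 TPM in 2D and 484 and 476 TPM in 3D.

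**Figure D4:**
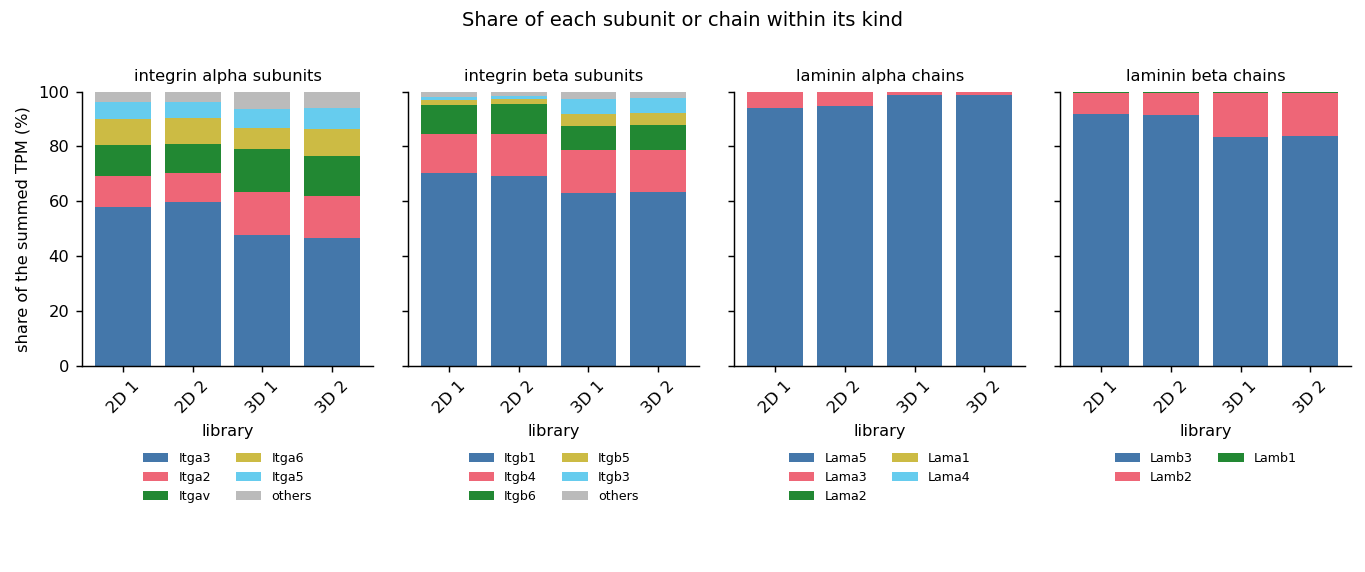
Share of the summed TPM (y axis, %) that each integrin α or β subunit and each laminin α or β chain makes up within its kind, in each of the 4 libraries (x axis). Itga3 and Itgb1 are the largest shares of the integrins in every library, and Lamb2 goes from 7.75% and 8.24% of the laminin β chains in 2D to 16.0% and 15.7% in 3D.

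None of the 3 linking components tested, Agrn, Hspg2 and Nid2, passed the test with limma, at adjusted p 0.0917, 0.0539 and 0.174. Agrn, the heparan sulphate proteoglycan agrin that binds laminin and dystroglycan, was at 157 and 184 TPM in 2D and at 201 and 195 TPM in 3D, a difference of 0.22 (95% interval -0.01 to 0.44, limma adjusted p 0.0917). Without 2D replicate 2 it was called higher (0.33, limma adjusted p 0.013). Hspg2, perlecan, was at 63.0 and 84.02 TPM in 2D and at 54.7 and 50.2 TPM in 3D, a difference of -0.47 (95% interval -0.85 to -0.08, limma adjusted p 0.0539). Without 2D replicate 1 it was called lower (-0.67, limma adjusted p 0.0091). For both, the 2D libraries lay further apart than the 3D libraries. The nidogens, which bridge laminin and collagen IV, were scarce, with Nid2 at 1.36 to 2.48 TPM and Nid1, which was not tested, at 0.713 to 1.04 TPM over the 4 libraries. Nid2 shares 8.45% of its exon bases with Rtraf on the opposite strand, which had a mean of 94.3 TPM. Whether reads of Rtraf entered the level of Nid2 was not tested.

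Other components of the basement membrane were compared as a list of 24 genes, of which 16 were tested, 3 rose and 8 fell, together 68.8% against 50.5% of all genes tested, with a median log2 fold change of -0.40. This list and the later ones were chosen with earlier results of these data known, so their shares are descriptions only. Of these 16 genes 14 had a mean of at least 1 TPM in each culture. Both main collagen IV chains fell, Col4a1 from 242 and 259 TPM to 129 and 136 TPM (log2 fold change -0.91, limma adjusted p 0.000628) and Col4a2 from 240.0 and 265 TPM to 100.2 and 101 TPM (-1.32, limma adjusted p 0.000385). Fbln2 (fibulin 2), Tinagl1 and Sparc (osteonectin, a collagen-binding protein) fell by 1.36, 0.90 and 0.86 (limma adjusted p 0.000517, 0.0019 and 0.000317). Col18a1, a heparan sulphate bearing collagen of epithelial and vascular basement membranes, rose from 355 and 396 TPM to 565 and 570.4 TPM (0.60, limma adjusted p 0.0022). Fbln1 (fibulin 1) had 0.206 and 0.412 TPM in 2D and 3.50 and 3.40 TPM in 3D, and was tested only through its 3D level.

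Of 27 further integrin ligands 20 were tested, 4 rose and 8 fell, together 60% against 50.5% of all genes tested, with a median of -0.23. Of these 20 genes 18 had a mean of at least 1 TPM in each culture, and 1 of the 8 that fell, Thbs2, was tested only through its 2D level (1.44 and 1.72 TPM, against 0.589 and 0.727 TPM in 3D). Spp1 (osteopontin), an RGD ligand of αv integrins, rose from 166 and 138 TPM to 764 and 786 TPM (2.35, limma adjusted p 0.000317). Vcam1, a ligand of α4 integrins, Cdh1 (E-cadherin), which the leukocyte integrin αEβ7 binds, and Vwf (von Willebrand factor) rose by 1.53, 2.09 and 1.55 (limma adjusted p 0.000241, 0.000215 and 0.0008). Fn1 (fibronectin), the ligand of α5β1, fell from 279 and 346 TPM to 149 and 134 TPM (-1.13, limma adjusted p 0.0023). The matricellular ligands Cyr61, Ctgf and Thbs1 (thrombospondin 1) fell by 1.99, 0.79 and 1.57 (limma adjusted p 0.000202, 0.000331 and 0.000504), and Ltbp1, which stores latent TGF-β in the matrix, by 1.10 (limma adjusted p 0.000479). Mfge8 and Adam9 did not pass the threshold (limma adjusted p 0.0952 and 0.142), and Adam9 was called lower without 2D replicate 1 (-0.30, limma adjusted p 0.0161), against -0.07 without 2D replicate 2.

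Inside the cell, integrins are activated by talins and kindlins and joined to actin by adaptors. Of the 33 genes of that list 31 were tested, 4 rose and 10 fell, with a median of -0.14. The share called, 45.2%, was near and below the 50.5% of all genes tested. Fermt2 (kindlin 2) fell from 28.0 and 31.4 TPM to 14.5 and 13.2 TPM (-1.05, limma adjusted p 0.0014). The other kindlins and talins were picked with their values in view. Fermt1 (kindlin 1) was at 49.7 and 53.5 TPM in 2D and at 47.8 and 48.1 TPM in 3D. It did not pass the threshold (-0.10, limma adjusted p 0.202), nor did Fermt3 or Tln2, while Tln1 fell by 0.65 (limma adjusted p 0.0025). Ilk (integrin-linked kinase), Bcar1 (p130Cas) and Zyx (zyxin) fell by 0.87, 0.43 and 0.47 (limma adjusted p 0.0070, 0.0032 and 0.0050), and Ilk was not past the threshold without 3D replicate 2 (-0.82, limma adjusted p 0.0518). Rap1b, a small GTPase upstream of talin, fell by 0.14 (limma adjusted p 0.0352) and was not past the threshold without any one of the 4 libraries (log2 fold change -0.14 to -0.13, limma adjusted p 0.0733 to 0.170). Pxn (paxillin), a focal adhesion scaffold, was at 113 and 118 TPM in 2D and at 304 and 224 TPM in 3D. It rose by 1.17 (limma adjusted p 0.0041), and was not past the threshold without 2D replicate 1 (1.14, limma adjusted p 0.0750) or 2D replicate 2 (1.205, limma adjusted p 0.0656).

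Of 16 other laminin receptors, hemidesmosome proteins and membrane partners of integrins 13 were tested, 3 rose and 5 fell, together 61.5% against 50.5% of all genes tested, with a median of -0.09. The tetraspanins Cd63 and Cd9, membrane proteins that associate with integrins, rose by 0.73 and 0.76 (limma adjusted p 0.000486 and 0.0013). Cd81, Slc3a2 and Bsg, at 526 to 842 TPM over the 4 libraries, did not pass the threshold (limma adjusted p 0.0641, 0.0746 and 0.748), and Slc3a2 was called higher without 2D replicate 1 (0.15, limma adjusted p 0.0392). Outside the rule for named genes, the remaining called genes of this list were picked with their values in view. Utrn and Cav1 fell by 0.46 and 0.91 (limma adjusted p 0.0091 and 0.0044). The hemidesmosome linkers Plec (plectin) and Dst (dystonin) fell by 0.55 and 0.65 (limma adjusted p 0.0109 and 0.0029). Without 3D replicate 1 Plec was not past the threshold (-0.52). The tetraspanin Cd151, a partner of α3 and α6 integrins, fell by 0.70 (limma adjusted p 0.000543). Col17a1, a hemidesmosome gene also on the list, was not among the genes tested. Dag1, dystroglycan, a laminin and agrin receptor that is not an integrin, rose by 0.63 (limma adjusted p 0.0119), but was not past the threshold without 2D replicate 2 (0.54, limma adjusted p 0.0616).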

How the data were processed

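Poly(A) RNA libraries were made with a stranded kit. Per the labels and the methods of the study, the authors used cutadapt 1.8.3 and then Trimmomatic 0.36 for trimming, HISAT2 2.0.5 for alignment to GRCm38, and StringTie 1.3.4 with the annotation of Ensembl release 93 for quantification. The authors deposited TPM per library, without pooling. The log2 fold changes and p-values that the authors deposited beside them come from their DESeq2 comparison of 2D and 3D and were not used.

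The test was limma 3.58.1 (R 4.3.3, trended and robust eBayes) on log2(TPM + 1) for genes whose mean TPM in the 4 libraries reached 1, culture being the sole factor. Tests were two-sided, with Benjamini-Hochberg adjustment over all genes tested. With 2 libraries a culture the smallest exact permutation p is 0.333, so no such test was used. The script was tested on simulated data. Of the members, 1 is counted but not reported here by its own values. Members, lists and classes were chosen with earlier results of these data known. The other members may be named, and from each list the 5 genes of highest mean TPM and those called with a change of at least 1 on the log2 scale. Exon sharing was taken from GENCODE M21, where 40 of 41 members have the deposited start and end. Promoter windows are from RefSeq, GRCm38.p6. The alternatives were other pseudocounts, filters, scalings and variance priors, a replicate block, and each library left out. Python 3.11.15 and matplotlib 3.10.9 were used for the other steps.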

Additional observations from a re-analysis of the deposited data

How the results depend on the processing

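There were 2 libraries per culture and no read counts, so counting error is unknown, which weighs most on genes under 1 TPM, tested only with no filter on low values. Of 320 values of the tested members under 12 alternatives, 303 kept their direction and their side of the threshold, 9 were no longer past it, 5 newly were and 3 turned sign. Those 3 were members not called, Itgb7 (-0.083 without 2D replicate 2 to 0.378 without 2D replicate 1, where it was called at adjusted p 0.0492) and Itga10 (-0.086 without 3D replicate 1 to 0.172 without 3D replicate 2, and -0.025 without 2D replicate 1). The call of Itga6 was also lost with no filter on low values (adjusted p 0.0832), under quantile normalization (0.0522) and with a constant variance prior (0.062). Hspg2 was called after centring on the median (-0.45, adjusted p 0.0472). Of the 33 list genes followed under the alternatives, Bsg turned sign (-0.0744 without 2D replicate 2 to 0.142 without 2D replicate 1). With a mean TPM of at least 5, which leaves out Lama3 and Lamb1, 3 basement membrane components were lower. Their median was -0.31 with a pseudocount of 5, -0.19 with no filter and -0.15 with a mean TPM of at least 5. Pseudocounts and filters act on low genes by construction.

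With each library left out in turn, limma takes the lone library of a culture to vary like the other pair. The genes called then numbered 4720 (without 3D replicate 1) to 5954, against 7122. Integrin subunits called higher were 4 to 5 and lower 6 in each case. Basement membrane components called higher were 0 (without 3D replicate 1, where Lama5 was lost) to 3 (without 2D replicate 2, with Lamb2 and Agrn), and lower 4 to 6. Their median ranged from -0.67 (without 2D replicate 1) to -0.26 (without 2D replicate 2), and that of the integrin subunits from -0.06 to 0.04. The labels do not say whether the replicate numbers pair the libraries. The correlation of same-numbered deviations was -0.05 across 14116 genes, which shows no shared deviation but cannot settle the pairing. With the replicate block, 6247 genes were called and the 11 integrin subunits and 6 basement membrane components called were those called without it. Of the 33 list genes followed, it changed the call of Rap1b (adjusted p 0.0994).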
